A study of Mus musculus with 9 samples.

Results

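The nuclear-encoded subunits of the respiratory chain were described across 3 groups of cells sorted from mouse retinas as retinal ganglion cells (RGCs), the neurons whose axons form the optic nerve. The subunit genes were taken by name, namely all listed genes that start with Nduf, Uqcr, Cox4 to Cox8 or Atp5, and Sdha to Sdhd, without the Ndufaf assembly factors and without names that contain -ps. This rule used no measured value and gave 79 of the 15228 genes listed: 37 of complex I, 4 of complex II, 8 of complex III, 13 of complex IV and 17 of complex V. All mice were wild-type, and C57BL/6J mice of both sexes served in the study. Ctrl cells came from intact retinas. ONC cells came from retinas 3 d after optic nerve crush with an intraocular injection of PBS as vehicle, and TPEN cells from retinas 3 d after the same crush with an injection of TPEN, a membrane-permeable chelator that binds zinc. Each group had 3 libraries of polyadenylated RNA, and whether replicate libraries stem from different mice is not given in the sources used here, so p-values measure only the spread between these libraries.

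The respiratory chain passes electrons from NADH and succinate to oxygen and pumps protons across the inner mitochondrial membrane, and ATP synthase uses the proton gradient to make ATP. Complex I (NADH dehydrogenase), complex III (cytochrome bc1), complex IV (cytochrome c oxidase) and complex V (ATP synthase) combine subunits encoded in the nucleus with subunits encoded in mitochondrial DNA (mtDNA), whereas complex II (succinate dehydrogenase) is encoded in the nucleus alone. Photoreceptors and RGCs, with their unmyelinated axons inside the eye, are known for a high demand for ATP.

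The libraries held 19946993 to 23109754 reads, and the levels are RPKM, reads scaled by exon length and by library size. Of 10 RGC markers, 9 were listed, with a summed level of 333 to 344 RPKM in Ctrl, 349 to 370 RPKM in ONC and 269 to 281 RPKM in TPEN. Nefl (240 RPKM on average over all libraries), Nefm (51.5 RPKM) and Sncg (20.5 RPKM) made up most of it, and Thy1 (5.74 RPKM), Tubb3 (3.92 RPKM) and Isl1 (1.83 RPKM) were lower. The more specific markers Rbpms (0.439 RPKM), Slc17a6 (0.38 RPKM) and Pou4f1 (0.332 RPKM) were near the bottom of the table. The summed level of 10 rod markers (10 of 10 listed) was 18587 to 21976 RPKM in every library, so the name RGCs stands for the sorted cells, and in such bulk samples fewer cells of a type and less RNA per cell cannot be told apart. The sum of these 10 markers was 21400 to 21976 RPKM in Ctrl, 18587 to 18723 RPKM in ONC and 19971 to 20014 RPKM in TPEN. The sum of the microglia and macrophage markers (11 of 12 listed) was 4.09 to 4.999 RPKM in Ctrl, 42.5 to 43.4 RPKM in ONC and 21.9 to 23.8 RPKM in TPEN, and that of the cone markers (6 of 6 listed) was 128 to 135 RPKM in Ctrl, 111 to 119 RPKM in ONC and 199 to 202 RPKM in TPEN. The part of these cell types in the levels of the subunits was not tested.

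The 250 bases before the annotated start of a gene are shown for Sdha, whose level varied least between the groups, and for 3 of the 4 subunit genes that passed the test in any comparison (RefSeq, GRCm38.p6, 5′ to 3′ on the strand of the gene). Capitals mark matches to GCGCA, any base and GCGC in a row, the motif of nuclear respiratory factor 1 (NRF1), a transcription factor known for binding promoters of respiratory chain genes. The windows are chr13:74350241-74350490, minus strand, for Sdha, chr15:102671048-102671297, minus strand, for Atp5g2, chrX:106015450-106015699, plus strand, for Cox7b and chr7:97399753-97400002, plus strand, for Ndufc2. They follow the RefSeq starts, while gene positions were read from the deposited exons. For Cox7b and Ndufc2 both starts coincide, for Sdha the RefSeq start lies 40 bases inside the gene as the table lists it, and for Atp5g2 it lies 1305 bases inside, so that whole window is within the listed gene.
Sdha: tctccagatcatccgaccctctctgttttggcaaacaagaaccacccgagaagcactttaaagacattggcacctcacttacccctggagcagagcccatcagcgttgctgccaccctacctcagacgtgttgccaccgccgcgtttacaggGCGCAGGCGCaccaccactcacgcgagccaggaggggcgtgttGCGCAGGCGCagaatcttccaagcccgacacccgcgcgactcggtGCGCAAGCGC
Atp5g2: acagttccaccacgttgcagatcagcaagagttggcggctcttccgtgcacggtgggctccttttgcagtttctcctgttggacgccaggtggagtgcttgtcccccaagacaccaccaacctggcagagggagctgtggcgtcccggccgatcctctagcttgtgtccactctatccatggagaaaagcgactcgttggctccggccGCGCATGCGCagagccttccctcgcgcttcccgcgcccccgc
Cox7b: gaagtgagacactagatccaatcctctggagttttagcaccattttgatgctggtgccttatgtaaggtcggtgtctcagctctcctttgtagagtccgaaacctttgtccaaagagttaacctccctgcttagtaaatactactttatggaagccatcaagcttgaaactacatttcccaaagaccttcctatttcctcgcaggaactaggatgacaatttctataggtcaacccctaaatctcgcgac
Ndufc2: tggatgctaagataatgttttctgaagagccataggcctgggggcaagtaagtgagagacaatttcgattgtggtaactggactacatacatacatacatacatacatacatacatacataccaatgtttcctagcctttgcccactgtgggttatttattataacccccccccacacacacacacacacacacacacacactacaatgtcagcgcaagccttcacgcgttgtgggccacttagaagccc
Sdha held 3 matches, which ended 89, 46 and 1 bases before the start, and Atp5g2 held 1 match, which ended 33 bases before it. The windows of Cox7b and Ndufc2 held none of the 4 motifs searched, which says only that these letters are not in them. The same held for the window of Atp5b, the most abundant of the 79 genes, which is not shown. A promoter window of 300 bases, from 250 before to 50 after the start, was matched by symbol for 64 of the 79 genes. On either strand, 17 of these 64 genes (26.6%) held the NRF1 motif, against 12.4% of the 9160 genes tested that had a window and 4.6% of all windows. CCGGAAG, a motif of the GABP factor, was in 16 of the 64 (25%) and in 21.1% of the genes tested. AAGATGG, a motif of YY1, was in 10 (15.6%) and in 8.79%, and CAAGGTCA, a motif of the estrogen-related receptors, in 4 (6.25%) and in 1.35%. By complex, NRF1 matches were found in 7 of 33 genes of complex I, 2 of 3 of complex II, 1 of 5 of complex III, 1 of 10 of complex IV and 6 of 13 of complex V. These matches describe the sequences and are not sites of binding.

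The subunit genes were mostly abundant. Their median level was 16.8 RPKM. That of the 13566 genes tested, those averaging 0.5 RPKM or more over all libraries, was 5.08 RPKM. All 79 were among the genes tested, 68 of them lay above that median and 55 were at 10 RPKM or more. Of all reads, they took 0.592% to 0.606% in Ctrl, 0.608% to 0.623% in ONC and 0.620% to 0.624% in TPEN. Abundant and long genes weigh most in such a share. Complex V took 0.279% to 0.302% in Ctrl, 0.296% to 0.303% in ONC and 0.302% to 0.310% in TPEN. Its gene Atp5b had 31392 to 37129 reads per library and did not pass the test in limma. The levels, in RPKM, spanned from 1.04 for Atp5g1 to 366 for Atp5b, the catalytic beta subunit of ATP synthase.

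**Figure D1:**
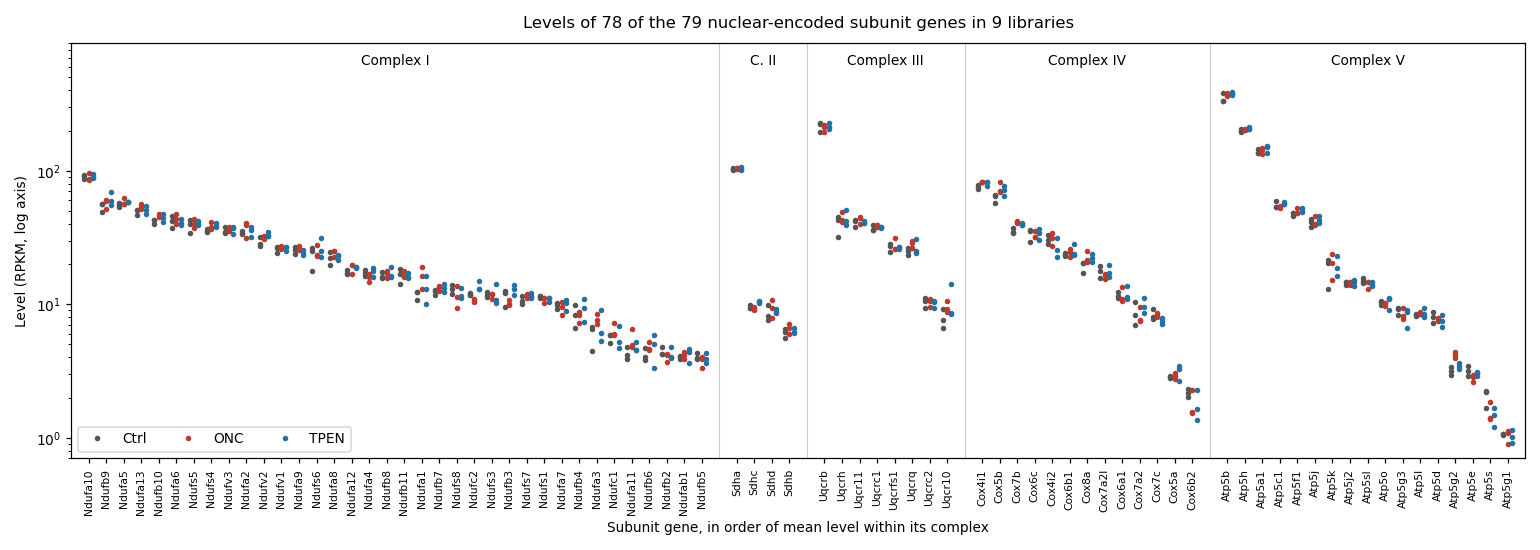
Level in RPKM (log axis) of 78 of the 79 subunit genes in the 9 libraries, with the genes in order of their mean within complexes I to V and 1 point per library (grey Ctrl, red ONC, blue TPEN). The genes of a complex differ far more among themselves than the groups do: complex V spans 1.04 to 366 RPKM, while the group means of 69 of the 78 genes lie within 1.2-fold.

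The listed levels within a complex were far from equal. The most abundant gene was Sdha in complex II (103 RPKM), the flavoprotein that oxidizes succinate, and Uqcrb in complex III (213 RPKM), a small accessory subunit. In complex IV it was Cox4i1 (79.7 RPKM), the common form of subunit 4, and in complex V Atp5b. The highest level of a complex exceeded its lowest 16.3 times in complex II, 23.0 times in complex III, 41.8 times in complex IV and 352 times in complex V. These levels are scaled by the listed exon length, which for some genes was far above the coding length. It was 4912 against 408 bases for Atp5g1 and 6443 against 309 for Atp5l. Atp5l (8.48 RPKM) had 1041 to 1334 reads per library, and Atp5k (19.1 RPKM) had 160 to 337. The part of exon length in these spans was not tested. Within complex II, the iron-sulfur subunit Sdhb (6.33 RPKM) and the membrane anchors Sdhc (9.71 RPKM) and Sdhd (8.88 RPKM) all lay far below Sdha. Low levels were also found for Cox5a (2.97 RPKM), a core-associated subunit of complex IV, beside 69.2 RPKM for Cox5b, and for Atp5e (2.99 RPKM), the epsilon subunit of ATP synthase. The values of Atp5e and of the genes with near copies below were chosen after they were seen.

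How reads were assigned between near copies of a gene is not given in the sources used here. The coding sequences of 21 of the 79 genes matched at least 1 pseudogene transcript of GENCODE M21 (GRCm38) elsewhere in the genome at 95% identity or more over at least 100 bases. Atp5l, at 8.48 RPKM, had 8 such near copies, the most of any gene. The median level was 17.1 RPKM for the 21 genes with a near copy and 16.8 RPKM for the other genes. Uqcrb and Atp5h, a subunit of the peripheral stalk of ATP synthase at 204 RPKM, each had 3 and were among the most abundant. The near copies of these 2 genes matched at 98.97% identity at most. A copy at 100% identity was found for Atp5g2 (3.595 RPKM), Cox7c (8.05 RPKM), Atp5l (8.48 RPKM), Ndufb4 (8.52 RPKM) and Cox7a2l (17.1 RPKM). The part of near copies in the levels was not tested. In addition, 22 of the 79 genes overlap another listed gene, 21 of them on the opposite strand, so their reads are uncertain as well.

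Single libraries stood apart for the subunit genes. Over the 21 with exons under 1000 bases in sum, the median relative log2 level was -0.14 in Ctrl replicate 3, 0.12 in ONC replicate 3 and 0.11 in TPEN replicate 2, where it was between -0.065 and 0.016 in the other libraries. The mean chi-square of read numbers between Ctrl replicates 1 and 3 was 9.96 over the 79 genes and 4.54 over all genes, where sampling of single reads gives 1. It was 2.21 and 2.30 between Ctrl replicates 1 and 2. At the same relative spread this value grows with the number of reads. The subunit genes were more abundant than most genes, so the 79 genes and all genes are not matched in it.

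**Figure D2:**
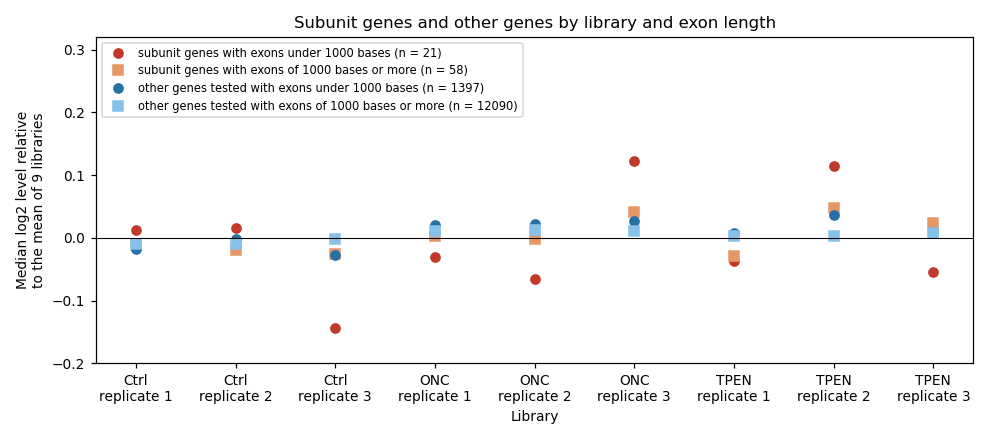
Median log2 level in each library relative to the mean of the 9 libraries, for subunit genes and other genes tested, split by summed exon length at 1000 bases. The 21 short subunit genes lie lowest in Ctrl replicate 3 (-0.14) and highest in ONC replicate 3 (0.12) and TPEN replicate 2 (0.11), and these libraries shift the other genes by 0.036 at most.

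The first comparison asked whether the subunit genes differed after the crush with its PBS injection. The labels name no injection for Ctrl, so the crush and the injection cannot be told apart. In ONC/Ctrl the subunit genes moved little: 2 of 79 were higher and 0 lower at an adjusted p under 0.05 in limma, against 18.7% of all genes tested (11.7% higher and 6.97% lower). The 2 genes were Cox7b, a small subunit of complex IV, and Atp5g2, which encodes a precursor of subunit c of the rotor ring of ATP synthase. None was a differentially expressed gene (DEG), which needs a fold change of at least 1.5 as well, against 5.34% of all genes tested. At an unadjusted p under 0.05 there were 12 of 79, against 31.6%. With voom on the recovered reads 6 of the 79 passed the adjusted threshold, all of them higher. Voom called 1941 of the 13566 genes higher and 1281 lower. After removal of a trend on exon length, 7 of the 79 passed, 2 of them higher and 5 lower. Of the 13566 genes, 1161 were then called higher and 1620 lower. The groups did not overlap for 13 genes that were higher and 2 that were lower in ONC, against 20.7% and 15.8% of all genes. The median log2 fold change was 0.03, against 0.02 over all genes tested, and the 95% interval lay within 1.5-fold for 71 of the 79 genes and within 1.2-fold for 43. Over all genes, 76.2% and 31.5% had such intervals.

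Cox7b (chromosome X, 106015700 to 106022450, GRCm38) was at 34.8, 37.4 and 34.3 RPKM in Ctrl and at 40.9, 41.4 and 42.3 RPKM in ONC. Every ONC library thus lay above every Ctrl library. The mean rose by 17.1%, and the log2 fold change was 0.23 ± 0.04 (SE) with an adjusted p of 0.00233 in limma. TPEN libraries were at 39.3, 40.6 and 39.5 RPKM, between the other groups and without overlap. The coding sequence of Cox7b had 2 near copies, on chromosomes 1 and 2.

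Atp5g2 (chromosome 15, 102662864 to 102672352) was at 3.41, 3.18 and 2.94 RPKM in Ctrl and at 3.97, 4.13 and 4.42 RPKM in ONC. The groups did not overlap. The mean rose by 31.4%, and the log2 fold change was 0.38 ± 0.08 (SE) with an adjusted p of 0.00843 in limma. TPEN libraries were at 3.26, 3.601 and 3.44 RPKM. They lay below every ONC library and overlapped Ctrl, but the decrease against ONC did not pass the test (log2 fold change -0.27, limma adjusted p = 0.0744). Atp5g2 is a low gene with 99 to 170 reads per library, and 2 pseudogene transcripts, on chromosomes 7 and 17, matched its whole coding sequence of 438 bases at 100% identity, so its reads are uncertain.

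**Figure D3:**
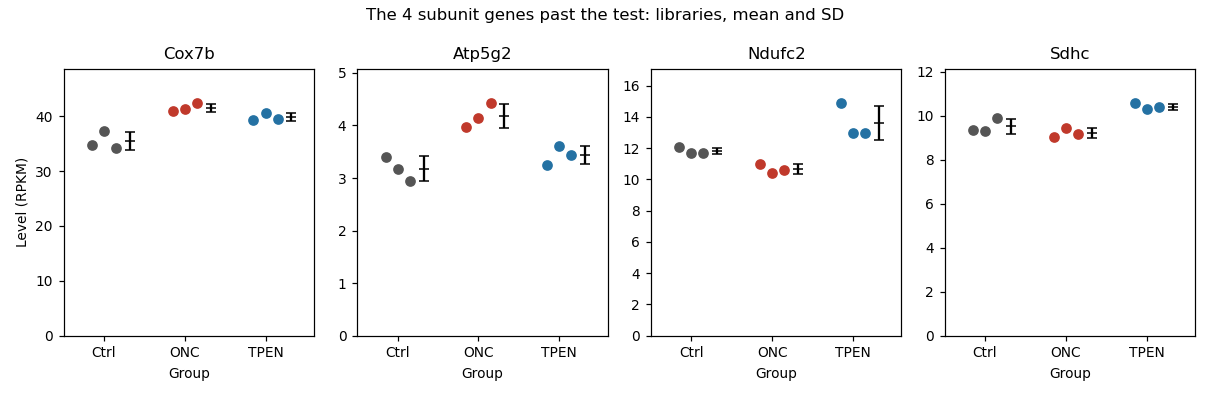
Level in RPKM (axis from 0) of the 4 subunit genes with an adjusted p under 0.05 in any comparison, with 1 point per library and the mean and SD of each group of 3 to the right of the points. Cox7b and Atp5g2 are higher in all ONC libraries than in all Ctrl libraries, and Ndufc2 and Sdhc are higher in all TPEN libraries than in all ONC libraries.

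Among abundant genes the contrast in calls with the rest of the table was larger. Of the 55 subunit genes at 10 RPKM or more, 1 passed the test in ONC/Ctrl, against 29.2% of the 4307 genes at that level. The contrast in intervals was smaller. In ONC/Ctrl, 69.1% of the 55 had a 95% interval within 1.2-fold, against 60.5% of the 4307. In TPEN/ONC the share was 70.9%, against 73.6%. Replicates of the 55 subunit genes also varied more. The median SD of log2 levels within groups was 0.0901 for these 55 genes and 0.0608 for all 4307. For the 18 of them with exons under 1000 bases in sum it was 0.134, close to the 0.138 of all 625 genes of that length and level, and for the other 37 it was 0.0762. Without Ctrl replicate 3, 5 subunit genes passed the test in ONC/Ctrl, 4 of them higher. Of all 13566 genes tested, 1492 were then higher and 767 lower. Without TPEN replicate 1, which lends its spread to the fit, 4 subunit genes passed, 3 of them higher. Of all genes tested, 1554 were then higher and 909 lower. Cox7b and Atp5g2 were among the subunit genes that passed in both cases.

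**Figure D4:**
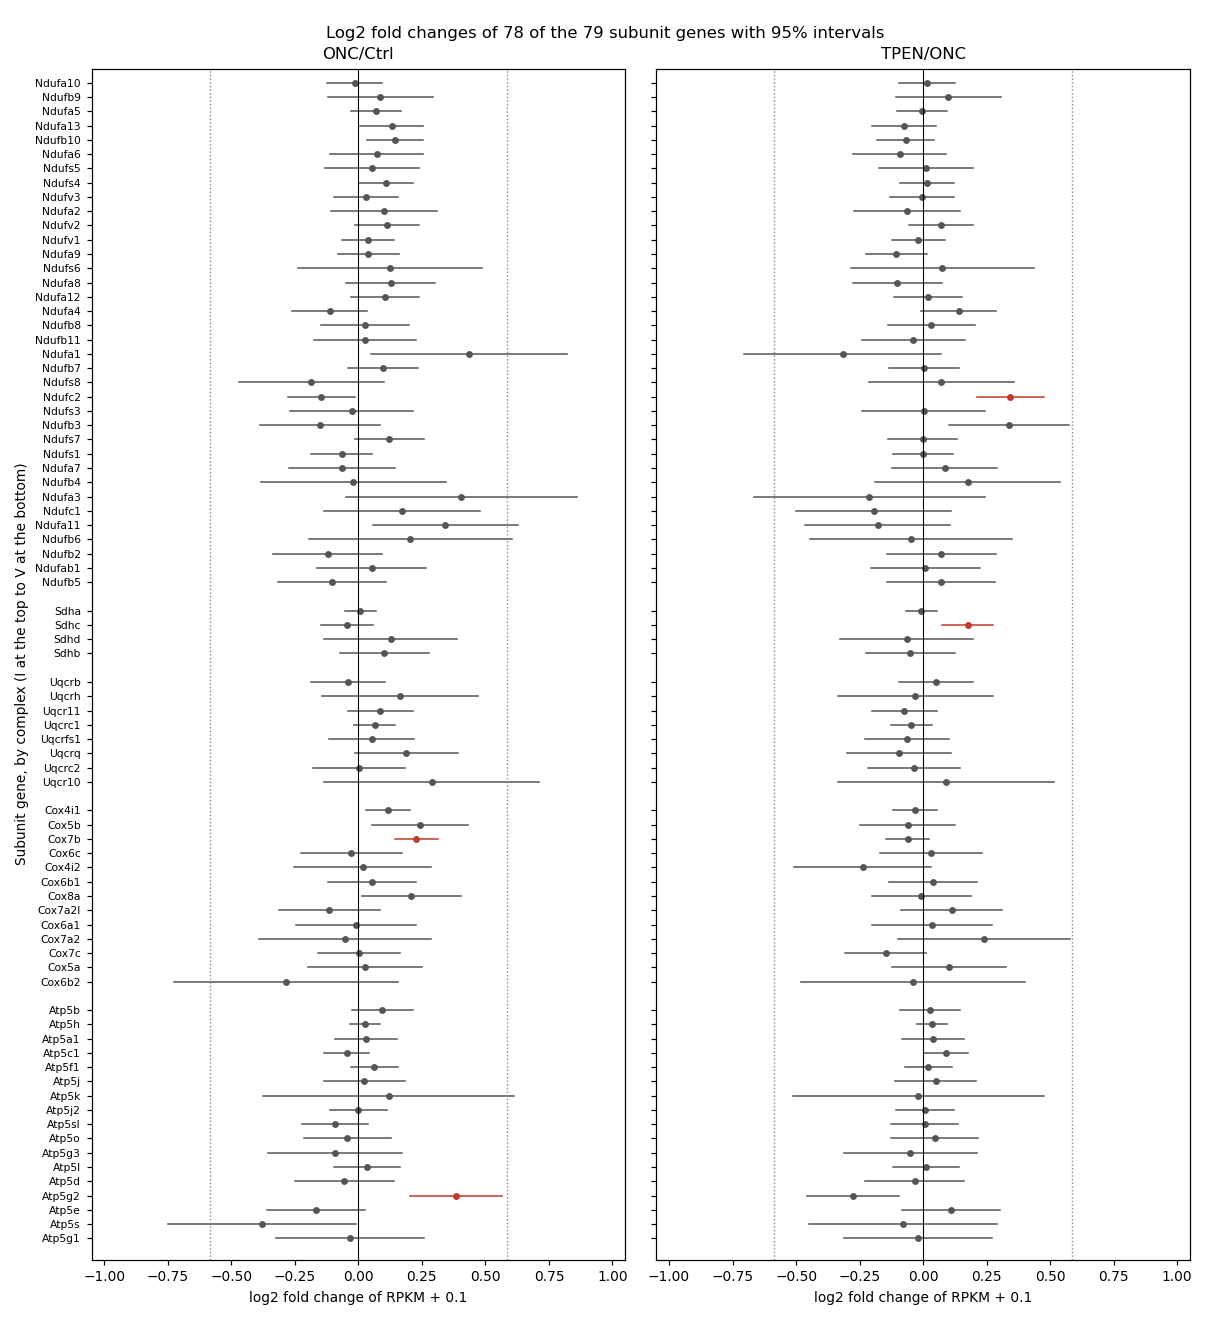
Log2 fold change of RPKM + 0.1 for 78 of the 79 subunit genes in ONC/Ctrl and in TPEN/ONC, with 95% intervals from limma and dotted lines at 1.5-fold. Red marks an adjusted p under 0.05. Of the 78 intervals, 70 stay inside the dotted lines in ONC/Ctrl and 76 in TPEN/ONC.

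A set of 20 subunits fixed by name is called core here, and for complex IV it holds Cox4i1, Cox5a and Cox5b. Of these 20, 0 passed the test in ONC/Ctrl in limma, against 18.7% of all genes tested. All 20 intervals lay within 1.5-fold and 15 within 1.2-fold, against 76.2% and 31.5% of all genes tested. Of the genes at 10 RPKM or more, 92.9% and 60.5% had such intervals. The log2 fold changes ranged from -0.18 for Ndufs8 to 0.24 for Cox5b. With voom, Cox4i1, Cox5b and Atp5b passed, all higher in ONC.

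In complex I, the core subunits carry the flavin and the iron-sulfur clusters. The flavin-binding subunit Ndufv1 was at 26.3, 24.4 and 27.0 RPKM in Ctrl, at 26.2, 26.1 and 27.2 RPKM in ONC and at 26.8, 25.1 and 26.6 RPKM in TPEN. Its partner Ndufv2 was at 31.7, 28.5 and 27.5 RPKM in Ctrl, at 30.6, 32.2 and 31.99 RPKM in ONC and at 32.3, 34.9 and 32.3 RPKM in TPEN. Ndufv1 overlapped between all groups. Ndufv2 lay higher in every TPEN library than in every other library, and the change did not pass the test (log2 fold change 0.18 in TPEN/Ctrl, limma adjusted p = 0.0632). Ndufs1, the large iron-sulfur subunit, was at 11.4, 11.2 and 11.5 RPKM in Ctrl, at 10.2, 11.2 and 11.2 RPKM in ONC and at 11.1, 10.3 and 11.2 RPKM in TPEN. Ndufs3 was at 11.3, 12.4 and 11.7 RPKM in Ctrl, at 10.9, 11.9 and 12.01 RPKM in ONC and at 10.7, 10.3 and 14.2 RPKM in TPEN. For both, the 3 groups overlapped, and TPEN replicate 3 alone was high for Ndufs3. Ndufs7 was at 10.02, 10.5 and 11.5 RPKM in Ctrl, at 11.7, 11.99 and 11.1 RPKM in ONC and at 11.2, 11.5 and 12.1 RPKM in TPEN. Ndufs8 was at 13.9, 13.1 and 11.8 RPKM in Ctrl, at 9.40, 11.3 and 13.7 RPKM in ONC and at 11.1, 13.3 and 11.5 RPKM in TPEN. Ndufs8 had a wide spread among ONC libraries, and its interval in ONC/Ctrl, -0.47 to 0.10 on the log2 scale, was the widest of the complex I core.

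Complex II held the gene whose group means lay closest together among the 79. Sdha was at 103, 101 and 105 RPKM in Ctrl, at 103, 104 and 104 RPKM in ONC and at 106, 101 and 102 RPKM in TPEN. Its group means lay within 1.005-fold of each other, and the interval of its log2 fold change in ONC/Ctrl was -0.05 to 0.07. Sdhb was at 6.50, 5.60 and 6.21 RPKM in Ctrl, at 6.02, 6.59 and 7.06 RPKM in ONC and at 6.08, 6.23 and 6.65 RPKM in TPEN. Sdhd was at 8.12, 9.84 and 7.57 RPKM in Ctrl, at 9.29, 7.92 and 10.7 RPKM in ONC and at 8.74, 8.59 and 9.16 RPKM in TPEN. Both overlapped between all groups.

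In complex III, the Rieske iron-sulfur protein Uqcrfs1 was at 24.8, 28.2 and 27.1 RPKM in Ctrl, at 26.0, 25.9 and 31.3 RPKM in ONC and at 26.9, 26.8 and 25.8 RPKM in TPEN. The core protein Uqcrc1 was at 36.2, 36.2 and 39.1 RPKM in Ctrl, at 39.0, 39.3 and 38.2 RPKM in ONC and at 37.6, 37.4 and 37.7 RPKM in TPEN. Uqcrc2 was at 11.2, 10.5 and 9.37 RPKM in Ctrl, at 10.995, 10.5 and 9.55 RPKM in ONC and at 9.33, 10.6 and 10.3 RPKM in TPEN. Only Uqcrc1 had a pair of groups without overlap among these 3 genes, with TPEN below ONC, and its change did not pass the test (log2 fold change -0.05, limma adjusted p = 0.505). Uqcrb was at 222, 226 and 195 RPKM in Ctrl, at 194, 212 and 219 RPKM in ONC and at 207, 213 and 226 RPKM in TPEN. Of the 8 genes of complex III, 0 passed the test in any comparison in limma, and the lowest adjusted p was 0.192.

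In complex IV, Cox4i1 was at 73.2, 78.8 and 76.1 RPKM in Ctrl, at 82.5, 81.7 and 82.9 RPKM in ONC and at 76.4, 82.9 and 82.4 RPKM in TPEN. Cox5b was at 65.1, 65.4 and 57.1 RPKM in Ctrl, at 70.5, 69.6 and 81.9 RPKM in ONC and at 64.4, 77.0 and 71.5 RPKM in TPEN. For both, every ONC library lay above every Ctrl library, and both missed the adjusted threshold, with log2 fold changes of 0.12 and 0.24 (limma adjusted p = 0.0659 and 0.0758). Cox5a was at 2.78, 2.90 and 2.87 RPKM in Ctrl, at 2.75, 2.92 and 3.05 RPKM in ONC and at 3.45, 2.68 and 3.29 RPKM in TPEN. Its groups overlapped.

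In ATP synthase, the alpha and beta subunits form the catalytic head and the gamma subunit the central stalk. Atp5a1 (alpha) was at 136, 135 and 146 RPKM in Ctrl, at 144, 149 and 133 RPKM in ONC and at 152, 136 and 150 RPKM in TPEN. Atp5b (beta) was at 331, 332 and 383 RPKM in Ctrl, at 368, 382 and 365 RPKM in ONC and at 389, 372 and 373 RPKM in TPEN. Atp5c1 (gamma) was at 58.8, 53.6 and 53.9 RPKM in Ctrl, at 52.8, 53.7 and 54.4 RPKM in ONC and at 56.4, 58.3 and 56.4 RPKM in TPEN. Atp5b was low in Ctrl replicates 1 and 2 and high in Ctrl replicate 3, where its level matched that of the injured groups, and without Ctrl replicate 3 it passed the test in ONC/Ctrl and in TPEN/Ctrl. Its log2 fold change with all libraries was 0.09 in ONC/Ctrl (limma adjusted p = 0.262).

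The second comparison asked what TPEN changed after the crush. In TPEN/ONC, 2 of 79 subunit genes were higher and 0 lower at an adjusted p under 0.05, against 7.39% of all genes tested (3.24% higher and 4.14% lower). They were Ndufc2, an accessory subunit in the membrane arm of complex I, and Sdhc, which anchors complex II in the membrane. None was a DEG, against 2.03% of all genes, and 5 of 79 had an unadjusted p under 0.05, against 22%. The groups did not overlap for 6 genes that were higher and 5 that were lower, against 12.5% and 15.6% of all genes. The median log2 fold change of the 79 genes was 0.0028 and that of all genes -0.01, and the 95% interval lay within 1.5-fold for 77 genes and within 1.2-fold for 43, against 80.7% and 37.6% of all genes.

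Ndufc2 (chromosome 7, 97400003 to 97407802) was at 12.1, 11.7 and 11.7 RPKM in Ctrl, at 11.02, 10.4 and 10.6 RPKM in ONC and at 14.9, 12.95 and 12.97 RPKM in TPEN. No library of 1 group overlapped another group, with ONC lowest and TPEN highest. In TPEN/ONC the mean rose by 27.3%, and the log2 fold change was 0.34 ± 0.06 (SE) with an adjusted p of 0.00771 in limma. In ONC/Ctrl it was -0.15 (limma adjusted p = 0.12) and in TPEN/Ctrl 0.20 (limma adjusted p = 0.0548), and neither passed the test. With voom, Ndufc2 missed the threshold in TPEN/ONC as well (adjusted p = 0.057). There 0 of the 79 genes passed, while 735 of all genes tested were higher and 950 lower.

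Sdhc (chromosome 1, 171127165 to 171150603) was at 9.35, 9.29 and 9.90 RPKM in Ctrl, at 9.02, 9.46 and 9.16 RPKM in ONC and at 10.6, 10.3 and 10.4 RPKM in TPEN. All TPEN libraries lay above all other libraries. The log2 fold change in TPEN/ONC was 0.18 ± 0.05 (SE), and the adjusted p in limma was 0.0472. This call lay near the threshold and was lost without any library other than Ctrl replicate 3, with a fit to the 6 libraries alone (adjusted p = 0.0676) and with voom (adjusted p = 0.0848). Of the 20 core subunits, Sdhc was thus the 1 that passed in TPEN/ONC, against 7.39% of all genes tested. Of the 20 intervals, 16 lay within 1.2-fold, against 37.6% of all genes tested and 73.6% of those at 10 RPKM or more.

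In TPEN/Ctrl, 1 of 79 subunit genes was higher and 0 lower, against 13.4% of all genes tested (8.36% higher and 5.01% lower), and none was a DEG, against 3.91%. The gene was Cox7b, whose log2 fold change was 0.17 ± 0.04 (SE) with an adjusted p of 0.0174 in limma. It lost this call in limma without Ctrl replicate 1 (adjusted p = 0.0642), Ctrl replicate 3 (0.0508) or TPEN replicate 2 (0.0627). The call was also lost after removal of the trend on exon length (0.0926). There 0 subunit genes passed and their median log2 fold change was -0.013. Of all genes tested, 865 were then higher and 1199 lower. At an unadjusted p under 0.05 there were 9 of 79 genes, against 27.2%. The median log2 fold change was 0.05, against 0.01 over all genes, and 0.02 without TPEN replicate 2. This comparison shares its Ctrl libraries with ONC/Ctrl and its TPEN libraries with TPEN/ONC.

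By complex, the direction of the changes was uneven, and the calls were few. In ONC/Ctrl, 25 of 37 genes of complex I, 3 of 4 of complex II, 7 of 8 of complex III, 8 of 13 of complex IV and 9 of 17 of complex V had a log2 fold change above 0, whether or not they passed the test. The medians were 0.05, 0.05, 0.07, 0.02 and 0.00037 in this order. In TPEN/ONC they were 0.0041, -0.03, -0.04, -0.0072 and 0.01, with 20, 1, 2, 6 and 11 genes above 0. Of all 13566 genes tested, 7262 were above 0 in ONC/Ctrl and 6371 in TPEN/ONC. After quantile normalization the median of the 79 genes in ONC/Ctrl was -0.0036 and after removal of a trend on exon length -0.05, so its sign depends on the scaling. Over all genes, 62.7% of the calls in ONC/Ctrl were higher, against 46.9% after quantile normalization and 41.7% after removal of the length trend. In TPEN/ONC the share was 43.9% and 53.9% after quantile normalization, and in TPEN/Ctrl it was 62.5%, 52% after quantile normalization and 41.9% after removal of the length trend.

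Some complexes have subunits with alternative genes, and the ratio within a pair does not depend on library size. Of 8 pairs fixed by name, 4 had both genes listed at 0.1 RPKM or more and were tested, and the other 4 were not analysed here. Atp5g1, Atp5g2 and Atp5g3 encode precursors that yield the same subunit c. The log2 ratio of Atp5g2 to Atp5g3 was -1.42, -1.50 and -1.47 in Ctrl, -0.94, -0.96 and -1.07 in ONC and -1.01, -1.32 and -1.31 in TPEN. The ratio was higher in every ONC library than in every Ctrl library, and TPEN lay between Ctrl and ONC with 1 library inside the range of ONC. Over all 3 groups it differed in an exact permutation test (two-sided, 280 splits, p = 0.00714, adjusted over the 4 pairs 0.0286), where the smallest p is 0.00357. With a pseudocount of 1 RPKM, or without any 1 of the Ctrl and ONC libraries, the adjusted p was over 0.05. Atp5g3 itself was at 9.31, 9.19 and 8.36 RPKM in Ctrl, at 7.70, 8.13 and 9.40 RPKM in ONC and at 6.68, 9.12 and 8.69 RPKM in TPEN, with overlap between all groups.

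The third gene, Atp5g1, was the lowest of all 79, at 1.07, 1.06 and 1.04 RPKM in Ctrl, 0.895, 1.09 and 1.13 RPKM in ONC and 0.907, 1.14 and 1.02 RPKM in TPEN. Its log2 ratio to Atp5g3 was -2.97 ± 0.07 in Ctrl, -2.90 ± 0.10 in ONC and -2.87 ± 0.11 in TPEN (SD, 3 libraries per group, exact permutation p = 0.496). Atp5g3 had the highest listed level per length of the 3 genes in all groups. Its coding sequence had no near copy, whereas a pseudogene transcript on chromosome 11 matched all 408 bases of that of Atp5g1 at 99.75% identity, so the reads of Atp5g1 are uncertain as well as those of Atp5g2.

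Cox4i2 encodes a form of subunit 4 of complex IV that is known from lung, carotid body and pericytes and responds to oxygen. It was at 30.4, 28.4 and 33.1 RPKM in Ctrl, at 31.2, 34.4 and 27.5 RPKM in ONC and at 31.6, 22.6 and 25.3 RPKM in TPEN. The log2 ratio to Cox4i1 was -1.31 ± 0.14 in Ctrl, -1.41 ± 0.17 in ONC and -1.61 ± 0.31 in TPEN (SD, 3 libraries per group, exact permutation p = 0.279). The groups overlapped in level and in ratio. The pericyte markers Pdgfrb and Rgs5 were at 0.28 and 0.644 RPKM, and Vtn, which other retinal cells also express, at 312 RPKM. Cox6b2, the form of subunit 6b known from testis, was at 2.34, 2.03 and 2.16 RPKM in Ctrl, at 1.57, 2.28 and 1.53 RPKM in ONC and at 1.35, 2.27 and 1.63 RPKM in TPEN. The common form Cox6b1 was at 23.3, 23.0 and 24.0 RPKM in Ctrl, at 26.0, 22.4 and 24.7 RPKM in ONC and at 23.7, 28.3 and 23.2 RPKM in TPEN. The log2 ratio of Cox6b2 to Cox6b1 was -3.37 ± 0.09 in Ctrl, -3.71 ± 0.41 in ONC and -3.79 ± 0.23 in TPEN (SD, 3 libraries per group, exact permutation p = 0.243). Every TPEN library lay below every Ctrl library in this ratio, and ONC overlapped both.

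The names of the table also take in genes that are not subunits of the complex they are named for. Atp5s and Atp5sl, known today as Dmac2l and Dmac2, belong to a family linked to the assembly of the membrane arm of complex I. Atp5s was at 2.19, 2.24 and 1.68 RPKM in Ctrl, at 1.85, 1.41 and 1.38 RPKM in ONC and at 1.21, 1.67 and 1.49 RPKM in TPEN. Its group means spanned 1.40-fold, the widest of the 79 genes, and every TPEN library lay below every Ctrl library, but with 36 to 77 reads per library its log2 fold change of -0.46 in TPEN/Ctrl did not pass the test (limma adjusted p = 0.103). Atp5sl was at 14.5, 15.7 and 14.8 RPKM in Ctrl, at 14.6, 12.96 and 14.7 RPKM in ONC and at 14.7, 13.7 and 14.01 RPKM in TPEN. Ndufa4 (16.8 RPKM), counted here in complex I by its name, is known today as a subunit of complex IV, and 0 of the 3 comparisons called it in limma.

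The subunits encoded in mtDNA are made in the organelle and join the same complexes. Of the 13, 2 were higher in ONC/Ctrl (mt-Nd3 and mt-Atp6), 4 in TPEN/ONC (mt-Nd4, mt-Nd5, mt-Cytb and mt-Co1) and 8 in TPEN/Ctrl (mt-Nd1, mt-Nd3, mt-Nd4, mt-Nd4l, mt-Cytb, mt-Co1, mt-Atp6 and mt-Atp8), and none was lower. Of all genes tested, 11.7%, 3.24% and 8.36% were higher in these comparisons. Of the 13, 1 was a DEG in TPEN/Ctrl, against 3.91% of all genes tested, and 0 in the other comparisons. The median log2 fold changes of the 13 genes were 0.07 in ONC/Ctrl, 0.14 in TPEN/ONC and 0.24 in TPEN/Ctrl. Cytochrome b, mt-Cytb, was at 4330, 4360 and 3920 RPKM in Ctrl, at 4164, 4186 and 4322 RPKM in ONC and at 4860, 5019 and 4990 RPKM in TPEN. Every TPEN library was above all others, and the log2 fold change in TPEN/ONC was 0.23 ± 0.04 (SE) with an adjusted p of 0.00917 in limma. The 13 genes summed to 31853, 32331 and 29060 RPKM in Ctrl, to 32010, 31671 and 32213 RPKM in ONC and to 34572, 35360 and 35329 RPKM in TPEN. Divided by the sum of the 79 nuclear-encoded genes, this gave 11.8, 11.9 and 10.9 in Ctrl, 11.6, 11.4 and 11.3 in ONC and 12.4, 12.4 and 12.6 in TPEN. The ratio was highest in the 3 TPEN libraries and overlapped between Ctrl and ONC. It is given as a description, because RPKM of mtDNA-encoded genes differed widely by gene, with 4.37 to 8.75 RPKM for mt-Co2 and 2686 to 3202 RPKM for mt-Co1. The count in TPEN/ONC was 2 without any single ONC or TPEN library and 7 without Ctrl replicate 3, that in ONC/Ctrl was 1 when Ctrl replicate 1 or either of ONC replicates 1 and 2 was left out, and quantile normalization left 0 of the 13 in TPEN/ONC and 2 in TPEN/Ctrl.

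**Figure D5:**
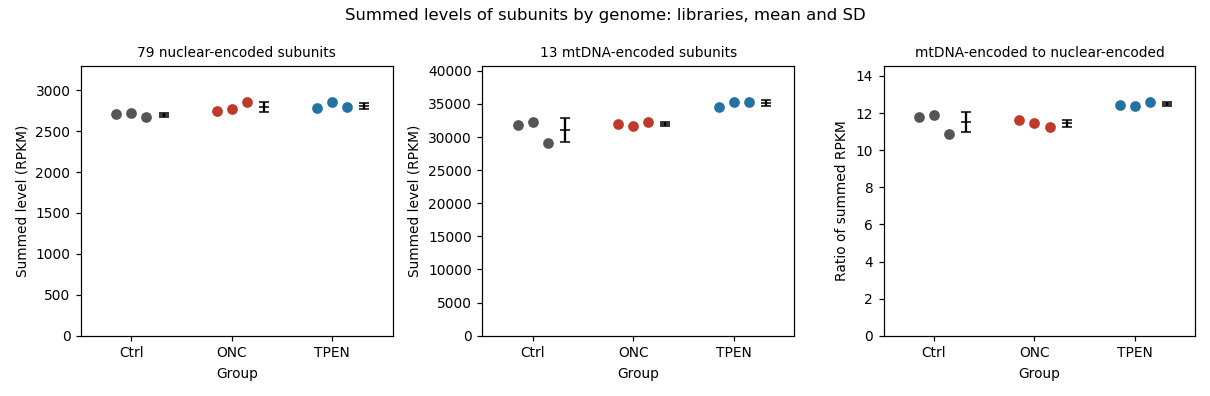
Summed level in RPKM of the 79 nuclear-encoded and the 13 mtDNA-encoded subunit genes and the ratio of the sums, for each library (points) with the mean and SD of each group of 3 to the right of the points. The sums of the nuclear-encoded genes are 2669 to 2717 in Ctrl, 2752 to 2862 in ONC and 2777 to 2853 in TPEN, and the mtDNA-encoded sums of the 3 TPEN libraries lie above all others.

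Genes that serve the complexes without being part of them were read from lists fixed by name. Beside these lists, 18.7% of all genes tested passed in ONC/Ctrl, 7.39% in TPEN/ONC and 13.4% in TPEN/Ctrl. Genes that passed are named as single genes and not as a result about their list. Of 15 complex I assembly factors tested, Ndufaf6 alone passed. Its log2 fold change was 0.79 ± 0.11 (SE) in ONC/Ctrl and -0.44 ± 0.11 in TPEN/ONC, with adjusted p-values of 0.000881 and 0.0452 in limma, and it was the 1 DEG of the list in ONC/Ctrl. Of 10 assembly factors of complexes II and III, Bcs1l, which inserts the Rieske protein, was higher in TPEN/ONC (0.45). Of 22 assembly factors of complex IV, Pet100 was higher (0.27) and Cox20 (-0.18) and Lrpprc (-0.32), which stabilizes mtDNA-encoded transcripts, were lower in ONC/Ctrl. In TPEN/Ctrl, Cmc2 (-0.71) and Lrpprc (-0.21) were lower, and Cmc2 was a DEG. Atpif1, the inhibitor of ATP synthase, was the 1 of 4 further subunits outside the name rule that passed, higher in ONC/Ctrl (0.17). Of 13 transcription regulators, the coactivator gene Ppargc1a was lower in ONC/Ctrl (-0.24) and higher in TPEN/ONC (0.19), Pprc1 was higher in ONC/Ctrl (0.33), and Ppargc1b was lower in TPEN/Ctrl (-0.21) and, just past the threshold, in TPEN/ONC (-0.17). None of the 14 citric acid cycle genes, the 16 genes of electron carriers or the 4 assembly factors of complex V passed in limma in any comparison.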

How the data were processed

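RNA of cells sorted by flow cytometry (CD90.2+ CD48neg CD15neg CD57neg) was sequenced with a stranded mRNA kit with molecular identifiers. The authors mapped reads to GRCm38/mm10 with STAR, and the submitters' processing notes name Trimmomatic 0.36. The counting program, its annotation, the use of strand and the collapsing of identifiers are not given in the sources used here. The deposited table holds RPKM values normalized by the authors for exon length and library size. Its columns of p-values and log2 fold changes hold the authors' own comparisons and were not used. In every library, 100% of the values were whole numbers of reads within 0.01 after scaling by exon length, which gave read numbers and totals. With fewer than 3 reads a level is not distinguishable from 0, and no subunit gene had fewer than 30.

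Groups came from the sample titles. The tests used limma 3.58.1 (R 4.3.3) on log2(RPKM + 0.1) with 1 term per group over all 9 libraries and a prior variance that follows the mean level. They ran on the 13566 genes that averaged 0.5 RPKM or more, with Benjamini-Hochberg adjustment over all of them. DEGs passed both an adjusted p of 0.05 and a 1.5-fold change. The test was checked on simulated data. Coding sequences were compared with pseudogene transcripts by blastn 2.17.0. Values per library are given for core subunits, the most abundant gene of each complex, genes that passed the test, paralog pairs and genes named for a complex without being its subunit. Genes outside this rule, such as Atp5e, Atp5l, Atp5h and Ndufa4, were chosen after their values were seen. The values of 1 subunit gene are not reported here, although it enters the counts. The genes and lists were chosen with earlier results of these data known. Alternatives were other scalings, pseudocounts and filters, voom on the reads, a replicate block, removal of a length trend and leaving out each library.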

Additional observations from a re-analysis of the deposited data

How the results depend on the processing

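With a fold limit of 1.2 in place of 1.5, 1 subunit gene was a DEG in ONC/Ctrl (Atp5g2) and 1 in TPEN/ONC (Ndufc2). The median log2 fold change of the subunit genes in ONC/Ctrl was -0.0036 after quantile normalization and -0.054 after removal of the trend on exon length, and in TPEN/Ctrl it was -0.013 after removal of that trend. Leaving out 1 library at a time gave 0.018 to 0.052 in ONC/Ctrl, -0.026 to 0.022 in TPEN/ONC and 0.017 to 0.069 in TPEN/Ctrl. The subunit genes that passed the test numbered 7 in ONC/Ctrl (2 higher and 5 lower) and 0 in TPEN/Ctrl after removal of the length trend. Of all genes tested, 1161 and 865 were then higher in these comparisons, and 1620 and 1199 lower. With voom on the recovered reads the subunit genes that passed numbered 6 in ONC/Ctrl, 0 in TPEN/ONC and 4 in TPEN/Ctrl. Of all genes tested, voom called 1941, 735 and 1433 higher in this order, and 1281, 950 and 938 lower. Leaving out 1 library at a time gave 2 to 5 in ONC/Ctrl, 1 to 3 in TPEN/ONC and 0 to 1 in TPEN/Ctrl, and the cause of these changes was not tested.

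Libraries of different groups with the same replicate number did not deviate together, with correlations of -0.06 to 0.03 over 9 pairs and 0 of them over 0.1. How the numbers were given is not stated in the sources used here, so a pairing of the samples is not excluded. With a replicate block, 3 subunit genes passed in ONC/Ctrl, 1 in TPEN/ONC and 3 in TPEN/Ctrl (Cox7b, Cox8a and Ndufc2). Of all 13566 genes tested, 1439, 304 and 947 were then higher in this order, and 785, 397 and 517 lower.

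The alternatives for the mtDNA-encoded genes were chosen after seeing the data. Of the 13 genes, quantile normalization left 0 in TPEN/ONC and 2 in TPEN/Ctrl, a fit to the libraries compared alone 1 in ONC/Ctrl, and the replicate block 2 in TPEN/ONC. Voom called 7 in ONC/Ctrl, 6 higher and 1 lower, and 7 in TPEN/ONC. Leaving out 1 library at a time gave 1 to 3 in ONC/Ctrl, 2 to 7 in TPEN/ONC and 6 to 8 in TPEN/Ctrl. With a pseudocount of 1 RPKM, 0 of the paralog ratios passed, and leaving out 1 library at a time gave 0 to 1.

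For Cox7b and Atp5g2 in ONC/Ctrl, 18 of 18 alternatives kept the call, with log2 fold changes of 0.14 to 0.27 and 0.28 to 0.44. Ndufc2 in TPEN/ONC kept it in 17 of 18, Cox7b in TPEN/Ctrl in 14 of 18 and Sdhc in TPEN/ONC in 7 of 18. The gene with the fewest reads, Cox6b2, had 30 to 58 per library.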
